A study of Homo sapiens with 32 samples.

Results

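Death receptors are cell-surface members of the tumour necrosis factor (TNF) receptor family that carry a death domain on their inner side, and 9 genes of their signalling route were followed here. They are the ligand gene TNFSF10 (TRAIL), the TRAIL receptor genes TNFRSF10A (DR4), TNFRSF10B (DR5) and TNFRSF10D (the decoy receptor DcR2), FAS, TNFRSF1A (TNF receptor 1), the adaptor gene FADD, the initiator caspase gene CASP8 and its inhibitor gene CFLAR (c-FLIP). The members were taken by gene symbol, each matching 1 Ensembl identifier, and are 9 of 60660 rows of the count table.

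When a ligand binds, the receptor gathers FADD, and FADD gathers caspase-8, which is cut into its active form. c-FLIP resembles caspase-8 without its activity and takes its place in the complex, and decoy receptors bind TRAIL without passing on the death signal. Unfolded protein in the endoplasmic reticulum sets off a stress response whose transcription factor CHOP, made from DDIT3, is a known activator of TNFRSF10B, and p53 is another known activator of TNFRSF10B and FAS.

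All lines were HCT116, a human colorectal carcinoma line, carrying OsTIR1 (a plant degron receptor) under a doxycycline-inducible promoter, with genotype label Tet-OsTIR1-PURO in the parental cells. The genes for the RNA-binding proteins IGF2BP3 and IGF2BP2 had each been disrupted by transient Cas9 expression, and every knockout line is 1 clone grown from a single sorted cell: A3, D12 and E4 for IGF2BP3, and B7, F6 and G6 for IGF2BP2. Parental cells and IGF2BP3 knockout clones were given tunicamycin, which blocks N-linked glycosylation in the endoplasmic reticulum, at 5 µg/mL for 4 h, or DMSO alone. For the IGF2BP2 knockout clones, the sources used here give neither dose nor duration. Poly(A) RNA was sequenced from 2 libraries per line and treatment, which gave 6 groups: parental cells with 4 libraries (2 parental samples) in each treatment, and 6 libraries (3 clones) in each treatment for either knockout.

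Some clones of a knockout share a guide and others do not, so the 4 designed guides are shown beside their clones. D12 and G6 are each the only clone of their guide, so guide and clone cannot be told apart there. Coordinates are GRCh38, and each guide lies in coding sequence and is followed by an NGG motif.
IGF2BP3 clones A3 and E4: tggcaccgactgatagagct
IGF2BP3 clone D12: acgcgtagccagtcttcacc
IGF2BP2 clones B7 and F6: gagctgccggaggtcgtcgg
IGF2BP2 clone G6: aggcgtagccggacttcagc
The guide of A3 and E4 matched chr7:23319200-23319219 in exon 11 of 15 of IGF2BP3, and that of D12 matched chr7:23469990-23470009 in exon 1. For IGF2BP2, the guide of B7 and F6 matched chr3:185824895-185824914 and that of G6 chr3:185824837-185824856, both in exon 1 of 16.

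Total counts ran from 16651438 to 24913021 per library. The targeted mRNA was lower in each of its 3 clones: IGF2BP3 fell by 1.48 on the log2 scale in its knockout in DMSO (adjusted p 0.00251 from the edgeR quasi-likelihood F test after Benjamini-Hochberg), and D12 kept a mean of 41.4 CPM (counts scaled to library size by TMM) against 20.2 in E4 and 21.3 in A3. IGF2BP2 fell by 1.02 (adjusted p 1.39e-05, same test) in its own. Epithelial markers EPCAM, KRT8, KRT18 and CDH1 were expressed in every library, whereas VIL1 averaged 0.0377 CPM. Of 8 markers of leukocytes, fibroblasts and endothelium, 7 stayed at or under 0.144 CPM and COL1A1 ran from 4.60 to 12.3 CPM. Libraries of the same replicate number also deviated together. The number was not a term in the fits reported first, and values with it as a block are given where they change a call. In addition 1 clone, B7, stood apart on chromosome 8, as described with the clones.

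In parental cells under DMSO the TRAIL receptor and TNF receptor 1 mRNAs were the most abundant members and the ligand was all but absent. Levels between genes are compared per kilobase of annotated exon. TNFRSF10B led with 28.4 ± 0.844 CPM per kb (SD, n = 4). TNFRSF1A at 17.9 ± 0.601, TNFRSF10D at 17.5 ± 1.23 and TNFRSF10A at 17.3 ± 2.14 CPM per kb followed, and the ranges of these 3 overlapped.

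FAS and the intracellular members were lower. FADD stood at 6.53 ± 1.20 CPM per kb, CASP8 at 4.85 ± 0.225, FAS at 3.69 ± 0.186 and CFLAR at 2.40 ± 0.129 (SD, n = 4 each). No library of one overlapped a library of its neighbour in this order. The CFLAR value rests on 22529 bases of combined exons, the longest of any member, so another annotation could move its place. A CPM value is a share of the mRNA pool, and in bulk RNA fewer cells of a kind and less RNA per cell cannot be told apart.

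TNFSF10, which encodes TRAIL, gave 17 counts over all 32 libraries. It was at 0 in 23 of them and its highest value was 4 counts, or 0.168 CPM. A count of 0 allows up to 3 counts, or 0.122 to 0.192 CPM depending on the library, which covers counting error only. TNFSF10 did not pass the filter on low counts in any comparison, so counts of tested members are out of 8. The other ligand genes examined, FASLG, TNF, LTA and TNFSF15, also failed that filter, and all were at 0 in every DMSO library.

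**Figure D1:**
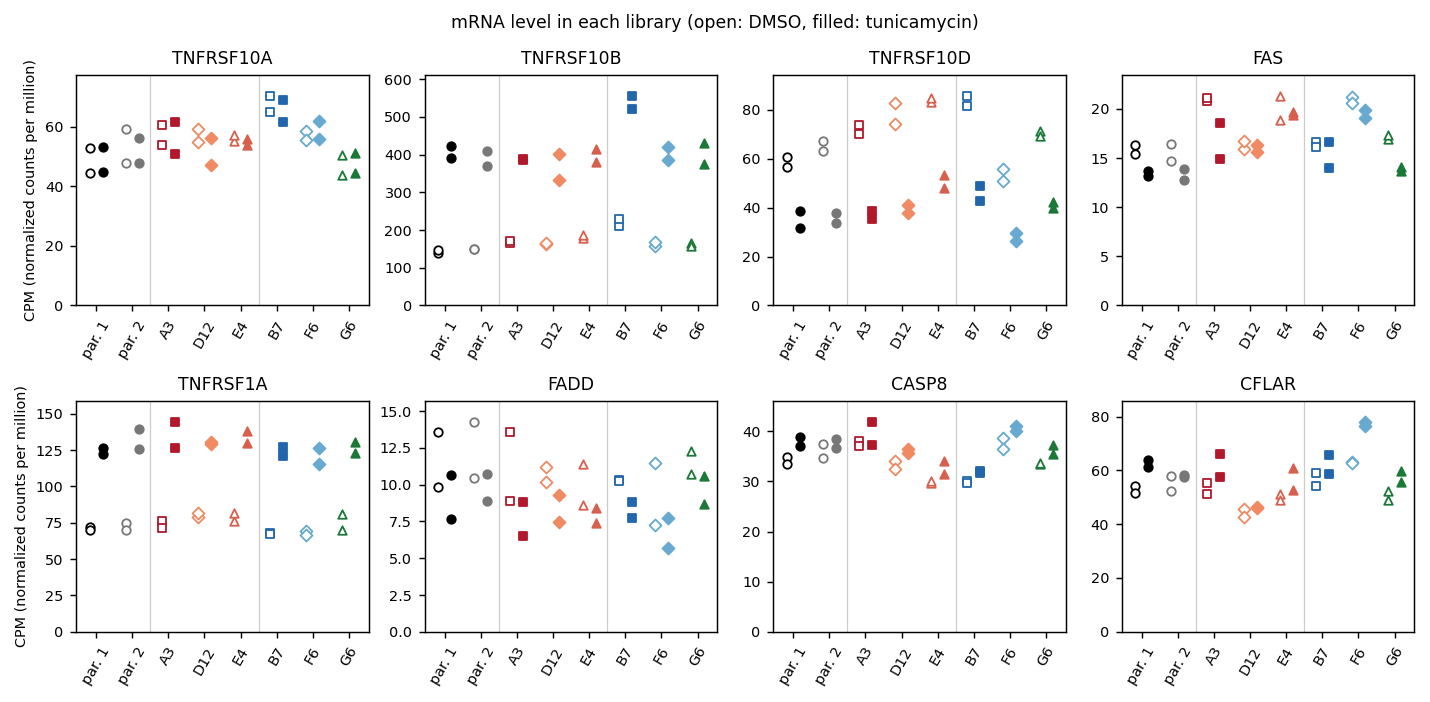
Level of each of 8 members in all 32 libraries, in CPM (linear axis from 0), by line: parental samples 1 and 2, IGF2BP3 knockout clones A3, D12 and E4, and IGF2BP2 knockout clones B7, F6 and G6. Open symbols are DMSO libraries and filled symbols tunicamycin libraries. TNFRSF10B and TNFRSF1A are higher in every tunicamycin library than in any DMSO library, and TNFRSF10D is lower within each line.

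The first comparison asks how endoplasmic reticulum stress changed these mRNAs. Tunicamycin raised TNFRSF10B and TNFRSF1A and lowered TNFRSF10D in each genotype, while TNFRSF10A did not pass the test in any. In parental cells TNFRSF10B went from 147 ± 4.35 to 399 ± 23.2 CPM (SD, n = 4 and 4). Of 8 members tested, 4 were called in parental cells, where 26.8% of all genes were called. In IGF2BP3 knockout cells 5 were called (33.8% of all genes), and in IGF2BP2 knockout cells 7 (40.1%).

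TNFRSF10B encodes DR5, a TRAIL receptor with a death domain. Parental DMSO libraries had 140.5, 147, 149 and 150.0 CPM, and tunicamycin libraries 370.5, 391, 411 and 423 CPM. In IGF2BP3 knockout cells the lowest, median and highest libraries were 163, 169 and 188 CPM in DMSO and 332, 387 and 414 CPM in tunicamycin. In IGF2BP2 knockout cells they were 157, 167 and 229 CPM against 375, 426 and 557 CPM. All 16 tunicamycin libraries lay above all 16 DMSO libraries. The fitted rise was 1.45 on the log2 scale (SE 0.0616, adjusted p 1.94e-07 from the edgeR quasi-likelihood F test after Benjamini-Hochberg) in parental cells, and 1.16 (SE 0.0516) and 1.31 (SE 0.0468) in the IGF2BP3 and IGF2BP2 knockouts. By its rise TNFRSF10B ranked 188th of 14398 genes in parental cells, 269th of 14265 in the IGF2BP3 knockout and 210th of 14145 in the IGF2BP2 knockout.

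TNFRSF1A encodes the receptor that, on binding TNF, passes on either survival or death signals through TRADD. Its parental libraries had 70.0, 70.0, 72.4 and 75.0 CPM in DMSO and 122, 126, 126 and 139 CPM in tunicamycin. Across all 8 lines no DMSO library reached the level of any tunicamycin library. In the fit TNFRSF1A rose by 0.84 (SE 0.0477) on the log2 scale in parental cells, by 0.79 (SE 0.0464) in the IGF2BP3 knockout and by 0.82 (SE 0.0426) in the IGF2BP2 knockout, with adjusted p of 1.38e-06, 9.09e-09 and 1.66e-09 from the edgeR quasi-likelihood F test after Benjamini-Hochberg. Lines ranged from 0.70 in D12 to 0.88 in A3, a narrower range than that of TNFRSF10B, whose line changes ran from 1.11 in E4 to 1.5 in parental sample 1.

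TNFRSF10D encodes a decoy whose death domain is truncated. In parental cells it went from 56.7, 60.5, 63.1 and 67 CPM to 31.5, 33.5, 37.6 and 38.7 CPM. Every line was lower in tunicamycin in both replicates, 16 of 16 pairs. Between lines the treatments overlapped, because clone E4 in tunicamycin (48.1 and 53.3 CPM) reached clone F6 in DMSO (50.8 and 55.7 CPM). TNFRSF10D fell by 0.80 on the log2 scale in parental cells, by 0.89 in the IGF2BP3 knockout and by 0.85 in the IGF2BP2 knockout, with adjusted p of 6.62e-05, 2.08e-08 and 8.36e-09 from the edgeR quasi-likelihood F test after Benjamini-Hochberg. Counted from the lowest fold change, it ranked 411th of 14398 genes in parental cells, 242nd of 14265 in the IGF2BP3 knockout and 277th of 14145 in the IGF2BP2 knockout.

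The balance between DR5 and decoy mRNA shifted accordingly. The per-kilobase ratio of TNFRSF10B to TNFRSF10D in parental libraries was 1.63 ± 0.0713 in DMSO and 7.77 ± 0.494 in tunicamycin (SD, n = 4 and 4). In the IGF2BP3 knockout it went from 1.52 ± 0.101 to 6.32 ± 0.866, and in the IGF2BP2 knockout from 1.82 ± 0.239 to 8.24 ± 1.48 (SD, n = 6 each). The lowest tunicamycin library, at 5.33, exceeded the highest DMSO library, at 2.12. The ratio is derived from the 2 values above and was not tested separately.

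TNFRSF10A, which encodes DR4, the other TRAIL receptor with a death domain, lies near TNFRSF10B on chromosome 8. In parental cells it had 44.5, 48.0, 53.0 and 59.1 CPM in DMSO and 44.9, 47.7, 53.1 and 56.3 CPM in tunicamycin. The ranges overlapped in each genotype. Its log2 fold change was -0.01 (SE 0.0857) in parental cells, -0.06 (SE 0.0560) in the IGF2BP3 knockout and 0.00 (SE 0.0519) in the IGF2BP2 knockout. From the edgeR quasi-likelihood F test after Benjamini-Hochberg the adjusted p was 0.934, 0.454 and 0.958. The ratio of TNFRSF10B to TNFRSF10A per kilobase in parental cells went from 1.66 ± 0.208 to 4.57 ± 0.726.

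FAS encodes the receptor of FAS ligand. Its parental libraries had 14.7, 15.4, 16.3 and 16.4 CPM in DMSO and 12.7, 13.2, 13.7 and 13.9 CPM in tunicamycin, without overlap. On the log2 scale FAS differed by -0.23 (SE 0.0729, adjusted p 0.0447) in parental cells, -0.13 (SE 0.0736, 0.208) in the IGF2BP3 knockout and -0.17 (SE 0.0595, 0.0389) in the IGF2BP2 knockout, from the edgeR quasi-likelihood F test after Benjamini-Hochberg. The parental call was lost in 7 of 9 alternative analyses, at adjusted p up to 0.162. The IGF2BP2 knockout call was lost in 8 of 9, at up to 0.339 without the clone G6 control libraries, whose treatment labels disagree with each other. Those libraries averaged 2.67 CPM of the stress gene DDIT3, within the 1.96 to 3.65 of the other DMSO line means, against 214 in the tunicamycin libraries of G6.

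Of the intracellular members, FADD fell, and CFLAR and CASP8 changed by small amounts in the opposite direction. FADD, the adaptor that links receptors to caspase-8, was lower in tunicamycin in 16 of 16 pairs of line and replicate. Its parental libraries had 9.85, 10.4, 13.6 and 14.3 CPM in DMSO and 7.66, 8.92, 10.7 and 10.7 CPM in tunicamycin, and the treatments overlapped. It fell by 0.34 (SE 0.145) on the log2 scale in parental cells, by 0.41 (SE 0.116) in the IGF2BP3 knockout and by 0.34 (SE 0.114) in the IGF2BP2 knockout. The adjusted p was 0.119, 0.0133 and 0.0258 from the edgeR quasi-likelihood F test after Benjamini-Hochberg, so the parental difference did not pass. With the replicate number as a block it did, at adjusted p 0.00286 by the same test (41.6% of all genes called), and so it did with line-summed counts (0.00257) or no filter on low counts (0.0299). The knockout calls were lost without clone D12 (0.0654) or E4 (0.0536) for IGF2BP3, and without B7 (0.113), F6 (0.0503), G6 (0.0629) or the G6 control libraries (0.0594) for IGF2BP2.

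FADD was the member most divided by replicate number. The library numbered 1 was above that numbered 2 in 16 of 16 pairs, by a median ratio of 1.28. Within number 1 the parental tunicamycin difference was -0.38 on the log2 CPM scale and within number 2 -0.29. FADD shares 1011 of its 1841 exon bases with the antisense gene AP000879.1, which was listed at 0 in all 32 libraries.

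CFLAR encodes c-FLIP, the inhibitor of caspase-8. Its parental libraries had 51.6, 52.2, 54.2 and 58.0 CPM in DMSO and 57.4, 58.2, 61.2 and 63.8 CPM in tunicamycin, overlapping by 1 library. It was higher in tunicamycin in 16 of 16 pairs. CFLAR had a log2 fold change of 0.16 (SE 0.0554) in parental cells, 0.16 (SE 0.0542) in the IGF2BP3 knockout and 0.21 (SE 0.0453) in the IGF2BP2 knockout, with adjusted p of 0.0618, 0.0340 and 0.00176 from the edgeR quasi-likelihood F test after Benjamini-Hochberg. With the replicate block the parental value passed, at adjusted p 0.0137, as it did with line-summed counts (0.0360) or without parental sample 2 replicate 1 (0.0337), and without any 1 of the clones A3, D12 or E4 the IGF2BP3 knockout value no longer did, at up to 0.190 (same test).

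CASP8 encodes the initiator caspase of the route. Its parental libraries had 33.5, 34.6, 35.0 and 37.4 CPM in DMSO and 36.8, 37.1, 38.4 and 39.0 CPM in tunicamycin, and the treatments overlapped. CASP8 differed by 0.11 on the log2 scale in each genotype (SE 0.0551, 0.0432 and 0.0373 in parental, IGF2BP3 knockout and IGF2BP2 knockout cells). It passed the test in the IGF2BP2 knockout alone, with adjusted p of 0.182, 0.0581 and 0.0284 from the edgeR quasi-likelihood F test after Benjamini-Hochberg. Leaving out any 1 of the 3 IGF2BP2 clones ended that call, at 0.141 to 0.147 by the same test. Without the clone G6 control libraries 4 members were called in the IGF2BP2 knockout, against 7 with them (40.1% of all genes). The share of all genes called without those libraries was not recorded. The lower count therefore cannot be read as a result about these members. With the replicate block the IGF2BP3 knockout value also passed, at adjusted p 0.0367 (41.9% of all genes called), and the IGF2BP2 knockout value still did, at 0.0165 (49.9%), from the same edgeR test. Whether genotypes differ in these changes is tested as an interaction further on.

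**Figure D2:**
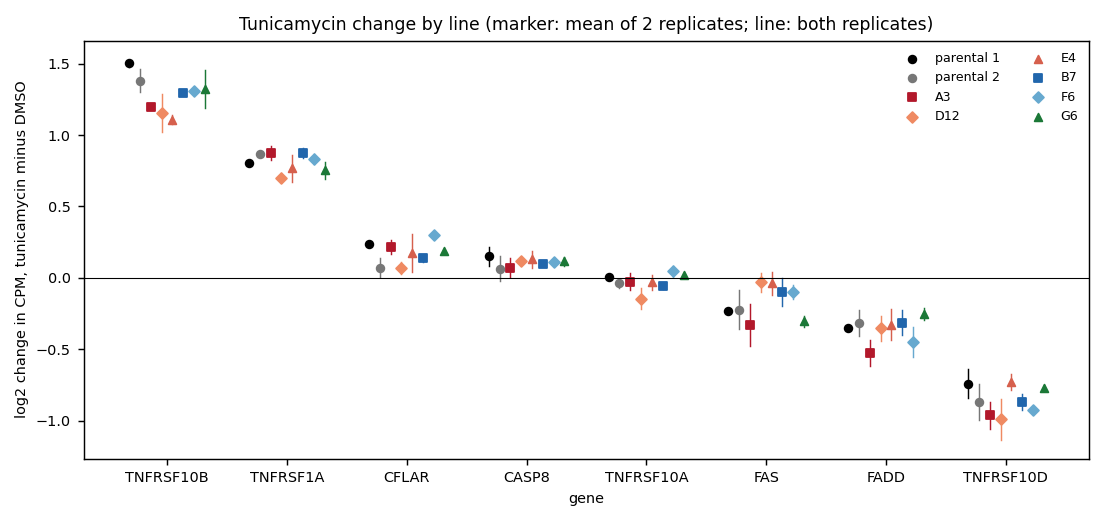
Log2 change in CPM from DMSO to tunicamycin for each of 8 members (x axis) in each of 8 lines. Markers are the mean of the 2 replicates of a line and vertical lines join both replicates. TNFRSF10B changes lie between 1.11 and 1.5, TNFRSF1A between 0.70 and 0.88 and TNFRSF10D between -0.99 and -0.73, with the remaining members nearer 0.

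Other genes of the pathway also changed under tunicamycin. Of 11 other receptor and ligand genes, 4 were expressed enough to be tested, and 1 of them was called in parental cells and 2 in each knockout, all lower, beside 26.8%, 33.8% and 40.1% of all genes called in parental, IGF2BP3 knockout and IGF2BP2 knockout cells. TNFRSF21, which encodes death receptor 6, fell by 0.31, 0.43 and 0.35 on the log2 scale in parental, IGF2BP3 knockout and IGF2BP2 knockout cells. The decoy receptor gene TNFRSF10C was at 0.853 ± 0.163 CPM in parental DMSO libraries (SD, n = 4), and the receptor gene TNFRSF1B averaged 0.0896 CPM there.

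Among 13 adaptors, ubiquitin enzymes and complex members, 12 were tested, and 4 rose and 2 fell in parental cells, with 6 up and 4 down in each knockout. This is 6, 10 and 10 of 12 called, beside the same 26.8%, 33.8% and 40.1% of all genes. Their median log2 change was 0.07 in parental cells, beside -0.01 over all genes. RBCK1, a subunit of the linear ubiquitin ligase, had the largest rise, 0.89, 0.98 and 0.84 in parental, IGF2BP3 knockout and IGF2BP2 knockout cells. The deubiquitinase gene CYLD rose by 0.60, 0.69 and 0.70 and BIRC2, which encodes the ubiquitin ligase cIAP1, by 0.54, 0.43 and 0.54.

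TRAF2, an adaptor of the TNF receptor 1 complex, fell by 0.67, 0.53 and 0.59 on the log2 scale, from 34.3 ± 2.42 to 21.6 ± 2.32 CPM in parental cells (SD, n = 4 and 4). The kinase gene RIPK1 fell by 0.24, 0.25 and 0.24. FAF1, which encodes a FAS-binding factor, rose by 0.20, 0.17 and 0.23. All 6 genes named for this list were called in all 3 genotypes.

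Of 18 genes acting beside or after caspase-8, 17 were tested. In parental cells 1 rose and 5 fell, in IGF2BP3 knockout cells 2 rose and 6 fell, and in IGF2BP2 knockout cells 3 rose and 7 fell, which is 6, 8 and 10 of 17 called beside 26.8%, 33.8% and 40.1% of all genes. The median log2 change was -0.15, -0.16 and -0.14, beside -0.01 over all genes in each. XIAP, which encodes an inhibitor of apoptosis protein, rose by 0.66, 0.56 and 0.62, from 60.1 ± 0.661 to 95.1 ± 5.71 CPM in parental cells (SD, n = 4 and 4). DFFB, the apoptotic nuclease gene, fell by 0.64, 0.61 and 0.65. DFFA, which encodes the inhibitor of that nuclease, fell by 0.20, 0.22 and 0.30, and MLKL, the effector of necroptosis, by 0.47, 0.39 and 0.36.

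The stress itself was marked. DDIT3, which encodes CHOP, went from 2.11 ± 0.586 to 236 ± 29.4 CPM in parental cells (SD, n = 4 and 4), a log2 fold change of 6.81 (SE 0.161). Of 10 stress and p53-related genes, 9 were called higher in each genotype. Of all genes, 12.5%, 16.2% and 19.2% were called higher in parental, IGF2BP3 knockout and IGF2BP2 knockout cells. The genes were listed as stress markers and regulators, so their count is descriptive. CDKN1A, a p53 target, rose by 0.62 in parental cells, whereas MDM2, another p53 target, changed by -0.04 (SE 0.0550) and was not called.

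The second comparison asks how loss of IGF2BP3 or IGF2BP2 changed the members. In DMSO, IGF2BP3 knockout cells had more TNFRSF10B and TNFRSF10D mRNA than parental cells, and no other member was called: 2 of 8 against 1.61% of all genes. Both knockouts were set against the same 4 parental libraries in each treatment, so their values stand side by side and are not independent.

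TNFRSF10B was at 172 ± 9.66 CPM in IGF2BP3 knockout DMSO libraries (SD, n = 6) against 147 ± 4.35 in parental ones (SD, n = 4). This was a log2 difference of 0.23 (SE 0.0515, adjusted p 0.0400 from the edgeR quasi-likelihood F test after Benjamini-Hochberg). In the IGF2BP2 knockout it was 0.31 (SE 0.106, adjusted p 0.983, same test), with 181 ± 30.7 CPM. Every knockout DMSO library, 12 of 12, was above all 4 parental ones, with B7 the highest clone at 210 and 229 CPM. B7 was higher over chromosome 8 genes as a set, as described with the clones. How many of all genes separate in this way was not recorded, here or where other ranges are compared. Lying outside the parental DMSO range was common among members: TNFRSF10D had 10 libraries above and 2 below, and TNFRSF1A 6 above and 5 below. For TNFRSF10B the log2 CPM difference of the IGF2BP3 knockout was 0.23 within replicate number 1 and 0.23 within number 2.

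TNFRSF10D was at 78.2 ± 6.18 CPM in IGF2BP3 knockout DMSO libraries (SD, n = 6) and 61.8 ± 4.36 in parental ones (SD, n = 4), again without overlap. This was a log2 difference of 0.33 (SE 0.0631, adjusted p 0.0171 from the edgeR quasi-likelihood F test after Benjamini-Hochberg). The IGF2BP2 knockout clones split, with F6 below every parental library at 50.8 and 55.7 CPM and B7 and G6 above, at 81.5 and 85.8 CPM and at 69.3 and 71.3 CPM. Their joint log2 fold change was 0.16 (SE 0.130, adjusted p 0.983, same test). The IGF2BP3 knockout differences were 0.37 and 0.30 on the log2 CPM scale within replicate numbers 1 and 2.

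Both calls rest on 2 libraries from each clone being counted as separate replicates. With counts summed per line, 3 clones against 2 parental samples, the adjusted p was 0.175 for TNFRSF10B and 0.123 for TNFRSF10D by the same edgeR test. Leaving out parental sample 1 replicate 1 (0.159 and 0.0705) or replicate 2 (0.0912 and 0.0525) also ended both calls. The TNFRSF10B call was further lost without clone A3 (0.0600), clone E4 (0.0872), or parental sample 2 replicate 1 (0.109) or 2 (0.0708).

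CDKN1A and MDM2 moved beside them in the same comparison: CDKN1A by 0.48 (adjusted p 0.0137 from the edgeR quasi-likelihood F test after Benjamini-Hochberg) and MDM2 by 0.26 (0.0415), both called higher. Their part in the TNFRSF10B result was not tested. BIRC3, which encodes the ubiquitin ligase cIAP2, was the only called gene of the 3 pathway lists, at -0.67 (SE 0.146, adjusted p 0.0328, same test) and 3.25 ± 0.542 CPM (SD, n = 6) against 5.16 ± 0.608 (SD, n = 4).

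In tunicamycin no member was called in the IGF2BP3 knockout, where 0.718% of all genes were. At an unadjusted p under 0.05 there were 2 by edgeR, FAS and TNFRSF10D, beside 1502 of all 14626 genes tested. DESeq2 called 1, FAS. FAS had lowest, median and highest values of 14.9, 17.4 and 19.7 CPM in knockout libraries against 12.7, 13.5 and 13.9 in parental ones, with no overlap. On the log2 scale the knockout was higher by 0.38 (SE 0.0956, adjusted p 0.116 from the edgeR quasi-likelihood F test after Benjamini-Hochberg). With the replicate block it was called, at adjusted p 0.0364 by the same test (2.28% of all genes), and with counts summed per line it was not, at 0.282.

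In the IGF2BP2 knockout no member was called in DMSO (0.0137% of all genes) or in tunicamycin (0.00694%). DESeq2 called none in either treatment. By edgeR 2 members had an unadjusted p under 0.05 in DMSO, beside 690 of 14564 genes, and 1 in tunicamycin, beside 1005 of 14419. FAS was among them in both, at 0.21 (SE 0.0925) in DMSO and 0.28 (SE 0.117) in tunicamycin on the log2 scale.

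The tunicamycin response itself was compared between genotypes as an interaction. No member was called for either knockout by edgeR or DESeq2, and neither was any gene by edgeR (0% of all genes). For the IGF2BP3 knockout 1 member, TNFRSF10B, had an unadjusted p under 0.05 (255 of 15313 genes). For the IGF2BP2 knockout none did (213 of 15178 genes). TNFRSF10B rose less by 0.28 on the log2 scale in the IGF2BP3 knockout than in parental cells (SE 0.0780, unadjusted p 0.00210, adjusted p 1.000 from the edgeR quasi-likelihood F test after Benjamini-Hochberg). The line changes were 1.5 and 1.38 in the parental samples, 1.20, 1.15 and 1.11 in A3, D12 and E4, and 1.30, 1.31 and 1.32 in B7, F6 and G6. Blocking on replicate number gave an adjusted p of 0.265 in edgeR. For the other 7 members tested the interaction lay between -0.08 and 0.11 in both knockouts, with SE up to 0.197 for FADD.

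The clones were then taken one at a time, each against the 8 parental libraries over both treatments. For some members the calls differed among clones of one knockout, whereas TNFRSF1A was called in no clone. Called members numbered 1 in A3 (6.28% of all genes), 2 in D12 (6.54%) and 3 in E4 (13.1%), and 4 in B7 (15.2%), 4 in F6 (15.6%) and 0 in G6 (2.13%). The parental samples compared with each other gave 0 called members by edgeR (0% of all genes) and 0 by DESeq2. At an unadjusted p under 0.05 there were 0 members, beside 254 of 14398 genes.

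Among the receptors, FAS was higher in A3 by 0.37 (SE 0.0693), in E4 by 0.44 (SE 0.0690) and in F6 by 0.48 (SE 0.0570) on the log2 scale, with adjusted p of 0.00189, 0.000163 and 4.46e-06 from the edgeR quasi-likelihood F test after Benjamini-Hochberg. In DMSO these clones had 20.8 and 21.1, 18.9 and 21.4, and 20.6 and 21.2 CPM, all above the parental maximum of 16.4. D12, B7 and G6 were not called, at 0.15, 0.13 and 0.09.

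TNFRSF10D was called higher in D12 at 0.25 (SE 0.0625), E4 at 0.47 (SE 0.0614) and B7 at 0.41 (SE 0.0575), and lower in F6 at -0.27 (SE 0.0601). The adjusted p was 0.0189, 2.05e-05, 3.08e-05 and 0.00387 from the edgeR quasi-likelihood F test after Benjamini-Hochberg. G6 at 0.20 (SE 0.0582, adjusted p 0.0747) passed with the replicate block, at 0.00594 (same test, 10.8% of all genes). The D12 call was lost without parental sample 1 replicate 1, at adjusted p 0.0779 in edgeR. B7 and F6 share a guide and lay on opposite sides of parental cells, and A3 and E4, which also share one, were at 0.14 and 0.47.

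Averaged over both treatments, TNFRSF10A and TNFRSF10B were called in B7 alone, at 0.39 (SE 0.0683) and 0.51 (SE 0.0504), with adjusted p of 0.000386 and 3.06e-07 from the edgeR quasi-likelihood F test after Benjamini-Hochberg. For TNFRSF10B the other clones were at 0.07 in A3, 0.01 in D12, 0.15 in E4, 0.08 in F6 and 0.07 in G6. Each of these clones lay above all parental libraries of TNFRSF10B in DMSO and overlapped them in tunicamycin. TNFRSF10B in B7 was 522 and 557 CPM in tunicamycin, against 370.5 to 423 in parental libraries. With the replicate block, TNFRSF10A was also called in A3 at 0.15 (adjusted p 0.0289, 11.8% of all genes) and F6 at 0.19 (0.000137, 27.6%), by the same test. TNFRSF1A stayed between -0.08 and 0.09 in the 6 clones and was not called in any.

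The intracellular members varied by clone too. CASP8 was lower in E4, by 0.23 (SE 0.0417), and in B7, by 0.24 (SE 0.0385), with adjusted p of 0.000827 and 0.000139 from the edgeR quasi-likelihood F test after Benjamini-Hochberg. In DMSO E4 had 29.8 and 30.0 CPM and B7 29.7 and 30.0 CPM, below the parental minimum of 33.5. With the replicate block CASP8 was also called in F6, where it was higher by 0.10 (adjusted p 0.0433, same test). CFLAR fell in D12 by 0.35 (SE 0.0526) and rose in F6 by 0.29 (SE 0.0473), with adjusted p of 0.000188 and 0.000181 by the same test. In tunicamycin F6 had 76.5 and 78.0 CPM of CFLAR and D12 46.0 and 46.3, on either side of the parental 57.4 to 63.8. FADD was called in F6 alone, at -0.43 (SE 0.134, adjusted p 0.0338), and not without parental sample 1 replicate 1 (0.158) or parental sample 2 replicate 1 (0.0987). FADD with the replicate block was also called lower in E4 at -0.27 (0.00687, 22% of all genes) and B7 at -0.20 (0.0484, 28%).

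Tested jointly, the 3 IGF2BP3 clones differed from each other in 3 of 8 members (7.63% of all genes): TNFRSF10D, CASP8 and CFLAR. Without E4 replicate 1 CFLAR alone kept its call, and CFLAR lost it without D12 replicate 1 (0.0969) or 2 (0.121). Without E4 replicate 2 none of these was called, at adjusted p of 0.155, 0.0925 and 0.0508 from the edgeR quasi-likelihood F test after Benjamini-Hochberg. The 3 IGF2BP2 clones differed in 6 of 8 (26.4% of all genes), all but TNFRSF1A and FADD. Blocking on replicate number added FAS among the IGF2BP3 clones (adjusted p 0.0471 in edgeR, 4 of 8 members and 14.6% of all genes) and FADD among the IGF2BP2 clones (0.00940, 7 of 8 and 41.3%).

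**Figure D3:**
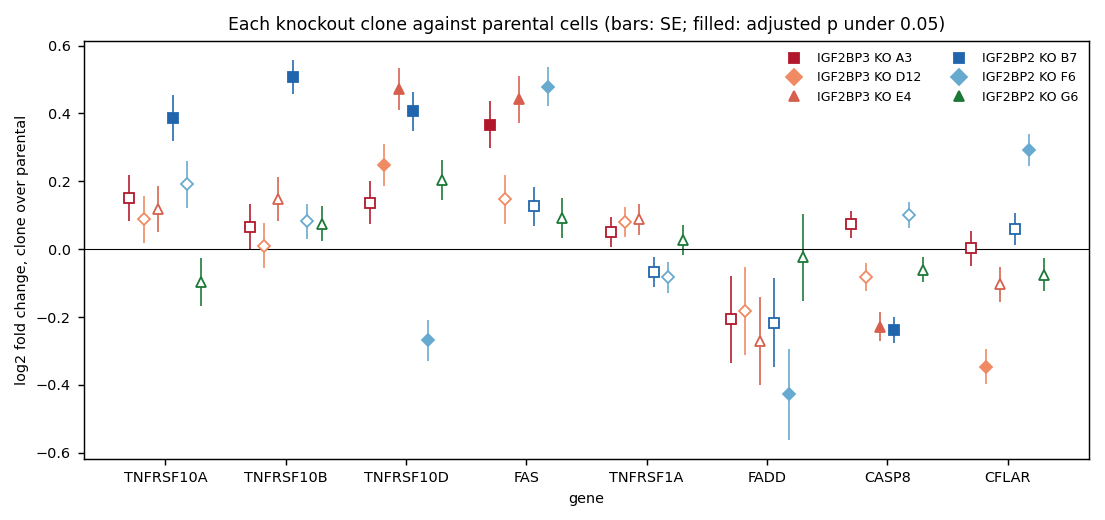
Fitted log2 difference of each knockout clone from parental cells over both treatments, for 8 members. Bars are the SE, and filled symbols have an adjusted p under 0.05 (edgeR quasi-likelihood test, Benjamini-Hochberg). FAS is called in A3, E4 and F6, TNFRSF10D in D12, E4, B7 and F6, and TNFRSF1A in none.

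The 3 TRAIL receptor genes lie side by side on the short arm of chromosome 8, at chr8:23020133-23069179 (TNFRSF10B), chr8:23135588-23164030 (TNFRSF10D) and chr8:23190452-23225126 (TNFRSF10A), with TNFRSF10C between them. After their values were seen, each clone's differences were summarised by chromosome. In B7 the median log2 difference over 523 chromosome 8 genes was 0.46, and 365 were called higher and 1 lower. The medians of the other 22 chromosomes in B7 ran from -0.04 to 0.03. In the remaining 5 clones the chromosome 8 median lay between -0.04 and 0.01.

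Set against that median, TNFRSF10A in B7 differed by -0.08, TNFRSF10B by 0.04 and TNFRSF10D by -0.06. TNFRSF10C was higher in B7 by 0.82 (SE 0.251, adjusted p 0.0315 from the edgeR quasi-likelihood F test after Benjamini-Hochberg). In E4, TNFRSF10D differed from the chromosome 8 median by 0.51, in D12 by 0.25 and in F6 by -0.28. The number of copies of chromosome 8 was not measured here, and its part in the B7 values was not tested. The IGF2BP2 knockout against parental cells gave 0 called members in either treatment, both with B7 and without it. With B7 only 0.0137% of all genes were called in DMSO and 0.00694% in tunicamycin. These counts therefore cannot show what B7 contributed, and the share of all genes without B7 was not recorded.

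**Figure D4:**
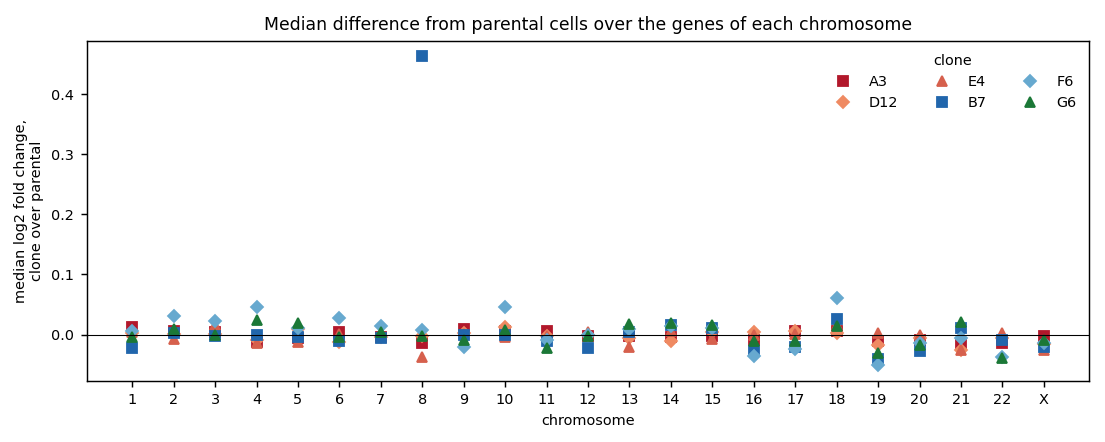
Median log2 difference from parental cells over the tested genes of each chromosome (x axis, chromosomes 1 to 22 and X), 1 marker per knockout clone. Clone B7 is at 0.46 on chromosome 8. Every other median of any clone lies between -0.05 and 0.06.

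FAS, TNFRSF1A and FADD lie apart from these, at chr10:88990582-89015785, chr12:6328757-6342114 and chr11:70203163-70207390. CFLAR (chr2:201116104-201176687) and CASP8 (chr2:201233443-201287711) are neighbours, with CASP10 between them, yet differed in D12, where CFLAR was called and CASP8 was at -0.08, and in B7, where CASP8 was called and CFLAR was at 0.06. These differences between genes were not tested. The chromosome 2 median was within 0.04 of 0 in every clone.

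RefSeq promoter windows (GRCh38.p14), each starting 250 bases before the transcription start, were matched for 6 members: FAS, TNFRSF1A, FADD, CASP8, CFLAR and TNFSF10. The stretch before TNFRSF1A is shown because that gene rose in every line and library pair. It is chr12:6342115-6342326 on the minus strand, the part of the upstream bases (chr12:6342077-6342326) that lies outside the annotated gene. The motif search below covered the whole window, including the bases not shown.
TNFRSF1A upstream: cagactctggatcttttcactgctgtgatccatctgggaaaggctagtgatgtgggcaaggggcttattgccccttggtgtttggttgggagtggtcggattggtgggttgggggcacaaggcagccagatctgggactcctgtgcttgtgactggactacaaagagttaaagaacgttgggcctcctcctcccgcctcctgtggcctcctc
Both strands were searched for TGATGNAA (the composite element of C/EBP and ATF factors, in 3.62% of 35116 promoter windows), the endoplasmic reticulum stress elements ERSE (0.0769%) and ERSE-II (0.0541%), TGACGTCA (1.85%) and TGACGTGG (0.729%). None of these motifs occurred in any window of the 6 members. The GC box GGGCGG, found in 45.0% of all windows, was present in windows of FAS, FADD, CASP8 and CFLAR, and not in that of TNFRSF1A. TATAAA, found in 11.5%, occurred before TNFSF10, starting at position -31, and in 1 window of CASP8. A match or its absence describes the letters alone.

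For the members called the same way in all 3 genotypes, the genes most alike in level were named by Pearson's r over the 16 means of line and treatment, among 10143 genes. The points share lines, libraries and the split by treatment, so r is descriptive. For TNFRSF10B they were TRIM5 (0.988), ULBP1 (0.988) and SLC39A14 (0.982). For TNFRSF1A they were CEBPB (0.994), GOT1 (0.994) and VCP (0.992), and for TNFRSF10D they were DEPDC7 (0.977), IGSF3 (0.972) and PHF13 (0.969). Over the 8 line changes to tunicamycin the nearest were KIRREL1 (0.969) for TNFRSF10B, JUNB (0.971) for TNFRSF1A and EIF4E (0.984) for TNFRSF10D. Each is the highest of 10143 values over 8 points. TNFRSF10A, not called under tunicamycin, also had a nearest gene at 0.962 (URGCP), so these values are descriptive too.

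Some members share exon bases with genes on the opposite strand, and whether counting used the strand is not given in the sources used here. TNFRSF10B shares 67 bases with RHOBTB2, which stood at 13.4 CPM on average in DMSO and 12 in tunicamycin, against a TNFRSF10B mean of 169 in DMSO. FAS shares 380 bases with ACTA2, at 1.03 CPM in DMSO. CFLAR shares 777 with CFLAR-AS1, at 0.736 CPM, and 1488 with the pseudogene IMPDH1P10, at 0.00568 CPM. On its own strand CFLAR shares 445 bases with AC007283.1, which was listed at 0 in every library. TNFRSF10A shares 224 with TNFRSF10A-AS1 and 266 with AC100861.1, at 3.4 and 4.49 CPM. The overlap of FADD is given above with its levels.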

How the data were processed

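Directional poly(A) libraries of 32 HCT116 samples were sequenced with paired reads, per the labels' protocols. STAR 2.7.5c and hg38 are named in the submitters' processing notes. The counting tool, annotation and strand setting are not given in the sources used here. The deposited table holds the authors' raw counts per gene (60660 rows, 22333 with no count). Symbols came from a supplied name table (42022 matched), and positions and exon lengths from GENCODE 29 on GRCh38.

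Groups follow sample titles. The clone G6 control libraries are labelled tunicamycin in their treatment field but control in title and library name. The title decided (DMSO), and each fit using them was also run without them. Their mean levels of DDIT3 (2.67 CPM against 214 in the G6 tunicamycin libraries) and HSPA5 (906 against 9780) lay within the range of the other DMSO lines. For the stress gene DNAJB9 they were the lowest DMSO line, at 8.58 CPM, against 162 in the G6 tunicamycin libraries.

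Counts were analysed with edgeR 4.0.16 in R 4.3.3 (TMM, filterByExpr by group, quasi-likelihood F test, Benjamini-Hochberg over all genes tested, threshold 0.05; SE implied by F). Treatment and interaction fits had the line as a term, clone fits had treatment as a covariate, and genotype fits had none. CPM values use TMM factors of all 32 libraries. DESeq2 1.42.0, its size factors, no filter, a replicate block, counts summed per line and leaving out clones or libraries were alternatives. The fits were tested on simulated counts drawn independently, with the same dispersion for every gene. The simulation held no deviation shared by replicate number, so it cannot show how the fits handle that feature of these libraries. Replicates are labelled duplicates, and nothing says that they were separate cultures, so p-values measure the spread between these libraries, which may be technical. Replicate libraries differed beyond counting noise (chi-square per degree of freedom 4.59 to 25.2).

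Within each treatment and line, deviations from the mean were correlated for libraries of the same number (median r 0.42 over 120 pairs, 119 over 0.1, lowest 0.09). Since 1 pair missed the criterion set for pairing, the number stayed out of the main fits, and fits with it as a block were run as alternatives.

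The members and pathway lists were chosen with earlier results of these data known. All 9 members are named. Other list genes are named where called in all 3 tunicamycin comparisons or in a knockout comparison, up to 8 per list by size of the parental change. Other genes printed (TNFRSF10C, TNFRSF1B, MDM2 and overlapping genes) were added for context. Some genes that the naming rule covers are not reported here.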

Additional observations from a re-analysis of the deposited data

Results flagged for a closer look

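In 48 sets of 1 member in 1 group, 1 library stood apart from the rest of its group by Dixon's criterion, which chance meets in about 1 of 20 sets. TNFRSF1A in clone G6 replicate 1 under DMSO was at 80.9 CPM, and the other 5 IGF2BP2 knockout DMSO libraries were at 66.4 to 69.9 CPM. This is one of the control libraries whose treatment labels disagree. In DDIT3 the G6 control libraries averaged 2.67 CPM, within the range of the other DMSO line means, against 214 in tunicamycin. For TNFRSF1A the tunicamycin libraries of the same clone were at 123 and 131 CPM.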

How the results depend on the processing

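No member reversed its direction under any alternative among those whose value was called, and TNFRSF10B, TNFRSF10D and TNFRSF1A kept their tunicamycin calls in every alternative run. Counts of called members moved as follows. Apart from the replicate block, the share of all genes called was not recorded for these alternatives. Those member counts therefore cannot be set against it. Under tunicamycin, leaving out 1 clone gave 3 to 5 members in the IGF2BP3 knockout (5 with all clones). In the IGF2BP2 knockout (7 with all) it gave 4 each time, as did leaving out the clone G6 control libraries. With no filter on low counts the IGF2BP3 knockout had 4 and the IGF2BP2 knockout 5. For the IGF2BP3 knockout against parental cells in DMSO (2 members), leaving out a clone or parental library gave 0 to 3 and line-summed counts gave 0. In tunicamycin (0 members), the replicate block gave 1 (2.28% of all genes) and DESeq2 gave 1. For single clones against parental cells, leaving out a clone or library gave 3 to 6 for IGF2BP3 (6, of fewer pairs when a clone is out) and 4 to 9 for IGF2BP2 (8). Among IGF2BP3 clones (3), leaving out a library gave 0 to 4. With the replicate block the counts for tunicamycin were 6, 6 and 7 in parental, IGF2BP3 knockout and IGF2BP2 knockout cells (41.6%, 41.9% and 49.9% of all genes). For single IGF2BP3 clones the block gave 8 (11.8%, 12.7% and 22% of all genes in A3, D12 and E4). For single IGF2BP2 clones it gave 12 (28%, 27.6% and 10.8% in B7, F6 and G6). Over all genes, the block moved calls by over 1.5 times for tunicamycin in parental cells (5989 against 3854), the IGF2BP3 knockout in DMSO (513 against 235) and in tunicamycin (333 against 105), clones A3 (1809 against 962), D12 (1952 against 1002), E4 (3362 against 2005), B7 (4248 against 2300), F6 (4190 against 2369) and G6 (1641 against 324), and among clones of IGF2BP3 (2080 against 1089) and IGF2BP2 (5844 against 3729). The cause of these shifts was not tested. FADD and TNFSF10, with 116 to 351 and 0 to 4 counts per library, are the members that depth limits most.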
